A study of Mus musculus and Rattus norvegicus with 60 samples.

Results

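The 40 genes described here code for the proteins that fold, check and export secreted proteins in the endoplasmic reticulum (ER), and for the factors that adjust that capacity. They were taken as the rows of the mouse and rat tables whose gene symbol matches a fixed list of 40 names. All 40 were among the 20155 mouse genes used, and 38 were among the 15163 rat genes used. Xbp1 and Sec24d are not listed in the rat table, and rat Hyou1 was listed at 0 in all but 1 of 30 libraries, so 40 mouse and 37 rat members entered the tests. RNA-Seq was done on growth plate cartilage dissected by laser capture microdissection (LCM) from C57BL/6 mice and Sprague Dawley rats, which were males. In each species there were 6 groups: tibial PZ (proliferative zone) and HZ (hypertrophic zone) at ages of 1 wk and 4 wk, and PZ and HZ from the proximal phalanx of the forelimb at 1 wk. The growth plate was the proximal one in both bones. Each group held 5 libraries, except that mouse 1-wk phalanx PZ had 4, since replicate 3 of that group had no column among the processed values. The sample titles number the replicates within each group, and the rat samples also carry a running number each. These titles do not say which libraries share an animal. The methods can be read as both zones coming from each animal, in which case the zone comparisons would be paired. The comparisons ask how the zones differ, how each zone changes with age in the tibia, and how the shorter phalanx differs from the longer tibia.

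Growth plate chondrocytes secrete large amounts of procollagen and proteoglycan, and these pass through the ER before they reach the matrix. In the ER lumen, chaperones and disulfide isomerases fold new proteins, prolyl isomerases and the chaperone Serpinh1 attend to the collagen triple helix, and COPII vesicles carry the cargo to the Golgi. When unfolded protein accumulates, the sensors Ern1, Atf6 and Eif2ak3 start the unfolded protein response, which raises chaperone levels, slows translation and, if it lasts, switches on Ddit3. The related factors Creb3l1 and Creb3l2 are best known from osteoblasts and from chondrocytes, respectively, and in mice loss of Creb3l2 leaves procollagen held back in the ER of chondrocytes.

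Values are normalized counts, that is read counts divided by the size factor of their library, and differences are on the log2(normalized count + 1) scale with their standard error (SE). A positive zone difference means higher in HZ than in PZ, a positive age difference means higher at 4 wk than at 1 wk, and a positive bone difference means higher in phalanx than in tibia. The adjusted p is from limma with Benjamini-Hochberg adjustment over all genes tested, 15213 in mouse and 11760 in rat, and genes under 0.05 are those named as called. The percentages of all genes beside the counts are from this fit and threshold. Counts of members at an unadjusted p, or under any other fit, have no such percentage to set them against. Since the counts are relative to the other RNA in a library, fewer cells of a type and less RNA of a gene per cell cannot be told apart.

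The libraries held 19711370 to 41856130 reads in genes in mouse and 7805695 to 28982210 in rat. In mouse, the ribosomal RNA gene Rn45s took 31.0% to 80.8% of the reads, from 31.0% to 37.2% in 4-wk tibia PZ to 65.8% to 80.8% in 1-wk tibia HZ, whereas in rat it took at most 0.00109%. The part of this share in the mouse results was not tested. The zones matched their labels by the summed PZ markers (Gdf10, Prelp and Bmp7; 3 of 3 listed), which were 48880 to 146700 in mouse PZ and 790 to 31020 in mouse HZ libraries, and 20100 to 115900 in rat PZ and 3201 to 35090 in rat HZ libraries. The summed HZ markers (3 of 3 listed in mouse, 2 of 3 in rat) differed between some PZ groups. They were 2569 to 9424 in mouse 1-wk tibia PZ and 32670 to 75190 in 4-wk tibia PZ. In rat they were 851 to 1793 in 1-wk tibia PZ and 7075 to 55980 in phalanx PZ. The HZ groups differed too. In rat HZ these markers were 18870 to 125500 in the 1-wk tibia, 25360 to 335700 in the 4-wk tibia and 204700 to 371500 in the phalanx. Rat phalanx PZ thus reached into the range of rat 1-wk tibia HZ. In mouse HZ they were 164400 to 451800 in the 1-wk tibia, 393000 to 843600 in the 4-wk tibia and 110700 to 162900 in the phalanx. The part of hypertrophic RNA in the zone differences, and in the PZ and HZ differences with age and between bones, was not tested. In 1-wk phalanx HZ of the mouse, the summed cartilage markers (6 of 6 listed) were 114000 to 281400 in replicates 1 to 4, below the 724600 to 1676000 of 1-wk tibia HZ, and 992100 in replicate 5. Replicate 5 also held the highest PZ marker level of that group (31020, against 790 to 1847) and the lowest osteoblast marker level (87060, against 419900 to 758200; 7 of 7 markers listed). In rat 4-wk tibia HZ, replicate 3 stood apart in the same way, with 35090 for the PZ markers against 6715 to 15560, and 186700 for the osteoblast markers (6 of 7 listed) against 401500 to 1493000.

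As a summary, the members were averaged on the log2 scale in each library. In the mouse tibia this mean was higher in PZ than in HZ, with medians of 10.25 against 9.89 at 1 wk and 10.70 against 9.87 at 4 wk, and the 5 libraries of PZ and the 5 of HZ did not overlap at either age. In the mouse phalanx the zones overlapped, with medians of 10.01 in PZ and 10.05 in HZ. In the rat the zones overlapped in all 3 growth plates, with medians of 10.84 and 10.94 at 1 wk in tibia PZ and HZ, 11.39 and 11.14 at 4 wk, and 10.75 and 10.62 in the phalanx. The 4-wk tibia PZ lay above the 1-wk tibia PZ without overlap in both species. At 1 wk, phalanx HZ lay above tibia HZ without overlap in the mouse and below it without overlap in the rat. The mean is a description, with no test.

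**Figure D1:**
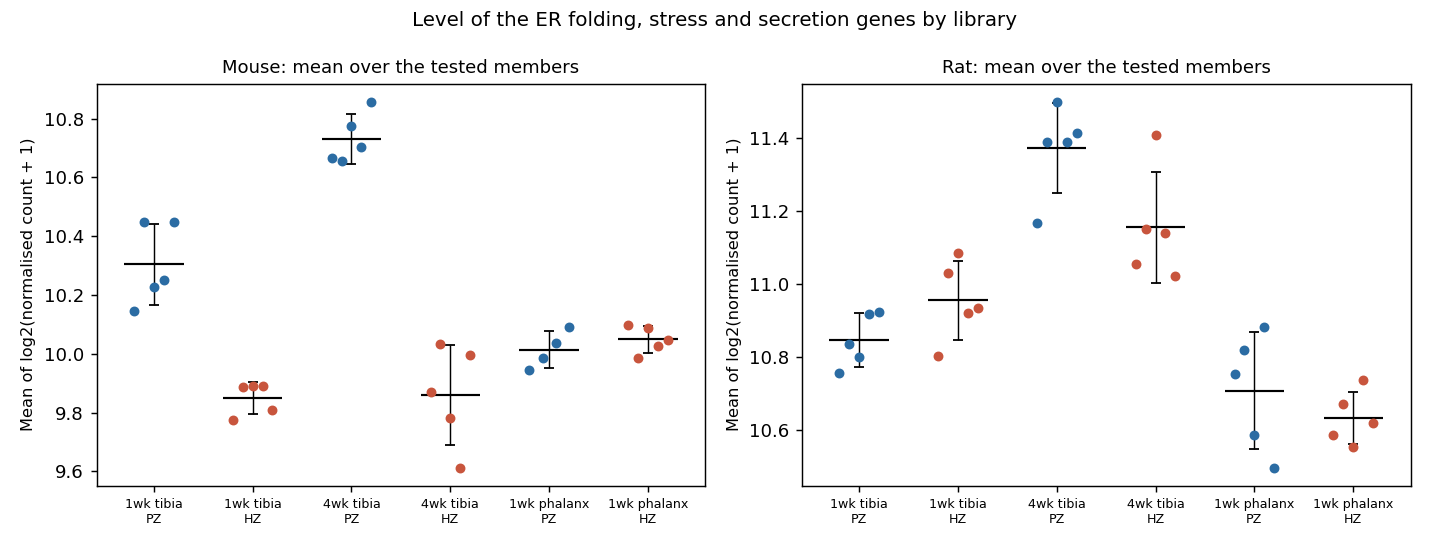
Mean of log2(normalized count + 1) over the 40 mouse and 37 rat members tested, per library, for the 6 groups of each species. Points are libraries, black lines are group means and bars are SD. Mouse 4-wk tibia PZ libraries reach 10.65 to 10.86 and mouse 4-wk tibia HZ libraries 9.61 to 10.03, while the rat zones overlap.

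In the mouse 1-wk tibia, 26 of 40 members were lower in HZ (23.7% of all genes tested were called lower) and 5 were higher (20.4% of all genes, and 44.2% in either direction). The median difference was −0.62 over the members and −0.15 over all genes. In the mouse 4-wk tibia, 31 of 40 were lower (16.6% of all genes) and 1 was higher (18.6%, and 35.3% in either direction), with a median of −0.94 against −0.03 over all genes. In the mouse phalanx, 9 were lower (17.2%) and 7 higher (17.9%, and 35.0% in either direction), with a median of −0.15 against −0.04, so that the members' counts were near those of all genes there. Without phalanx HZ replicate 5, the phalanx counts were 10 lower and 7 higher.

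In the rat, zone differences were fewer. In the 1-wk tibia, 7 of 37 members were lower in HZ (19.0% of all genes) and 8 were higher (22.6%, and 41.6% in either direction), with a median of 0.10 against 0.01 over all genes, so that these counts were near those of all genes. In the 4-wk tibia, 9 were lower (7.82%) and 1 was higher (13.5%, and 21.3% in either direction), with a median of −0.26 against 0.01, and without HZ replicate 3 the counts were 12 lower and 1 higher. In the rat phalanx, 8 were lower (17.7%) and 2 higher (22.9%, and 40.6% in either direction), with a median of −0.14 against 0.08. Without phalanx PZ replicate 5, 12 were lower and 2 higher.

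In the mouse tibia PZ, 12 of 40 members were higher at 4 wk (5.19% of all genes) and 0 were lower (3.39%, and 8.57% in either direction), with 23 at an unadjusted p under 0.05 in either direction. In the rat tibia PZ, 21 of 37 were higher (9.63%) and 0 lower (6.45%, and 16.1% in either direction), with 30 at an unadjusted p under 0.05. How many of all genes lay under that unadjusted p is not given. The members' medians were 0.38 in mouse and 0.57 in rat, against 0.06 and 0.04 over all genes. Fitting only the mouse groups compared gave 28 higher and 0 lower, and array quality weights, which let noisy libraries count less, gave 27 higher and 1 lower. In the rat these gave 22 higher and 2 lower, and 25 higher and 1 lower, and quantile normalization gave 9 higher and 1 lower in mouse and 18 higher and 1 lower in rat. Such changes are not read as results about the members, since the share of all genes called in each other fit is not given. In HZ, 3 were higher (8.83%) and 6 lower (6.72%, and 15.6% in either direction) in mouse, and 6 were higher (6.67%) and 1 lower (7.06%, and 13.7% in either direction) in rat. The rat HZ count of 7 fell to 3 without 1-wk replicate 3 or 4-wk replicate 1, and to 4 without 1-wk replicate 5 or 4-wk replicates 2, 3 or 4, and the mouse HZ count of 9 was 3 with only the groups compared and 4 with array quality weights.

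Between bones, in the 1-wk mouse, 11 of 40 members were lower in phalanx PZ than in tibia PZ (1.86% of all genes) and 0 higher (3.23%, and 5.09% in either direction), with 18 at an unadjusted p under 0.05, and 7 were lower without phalanx PZ replicate 4. In HZ, 12 were higher in the mouse phalanx (9.77%) and 4 lower (9.20%, and 19.0% in either direction). That HZ count of 16 was 3 with only the groups compared, 5 with array quality weights and 8 without 1-wk tibia HZ replicate 1. In the 1-wk rat, 4 of 37 were lower in phalanx PZ (3.67%) and 0 higher (6.78%, and 10.5% in either direction), with 9 at an unadjusted p under 0.05, whereas in HZ 16 were lower (16.3%) and 2 higher (19.7%, and 36.0% in either direction), with a median of −0.43 against 0.13 over all genes. Some markers of other cells also differed between phalanx and tibia HZ. The macrophage and osteoclast markers (5 of 5 listed, none at 0) were 48430 to 114000 against 13500 to 23040 in mouse and 11890 to 26280 against 1361 to 7070 in rat. The osteoblast markers were 469300 to 990500 against 169300 to 456300 in rat, and overlapped in mouse (87060 to 758200 against 91210 to 240800). Lower in the phalanx were the mouse skeletal muscle markers (0 to 9.93 against 18.9 to 405.5). Rat cartilage markers were 1167000 to 2530000 against 2337000 to 4705000, which overlapped. The part of these cells in the differences was not tested.

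**Figure D2:**
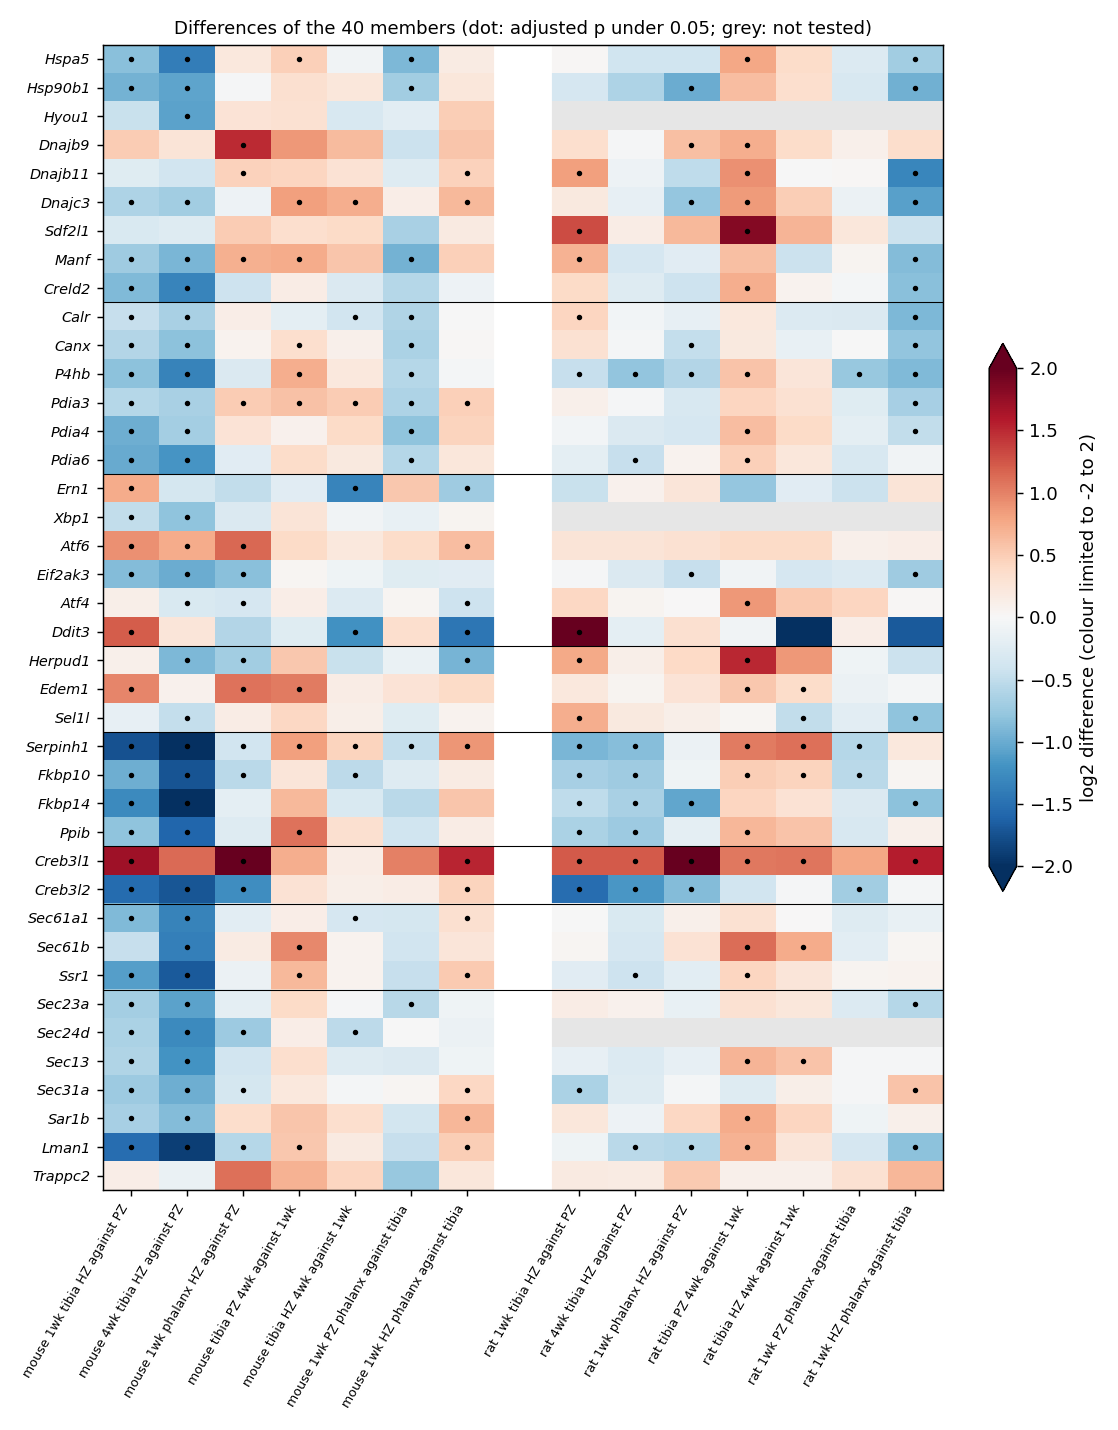
Log2 differences of the 40 members in the zone, age and bone comparisons of mouse and rat, grouped by role. Colours run from −2 (blue) to 2 (red), dots mark an adjusted p under 0.05 and grey marks members not tested. The mouse tibia zone columns hold 26 and 31 members called lower in HZ, and the rat tibia PZ age column 21 called higher at 4 wk.

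Among the chaperones of the ER lumen, Hspa5 (BiP), the Hsp70 protein that most of the others assist, was lower in HZ of the mouse tibia. At 1 wk its counts were 5454, 6341, 5847, 5142 and 7507 in PZ and 3035, 4061, 3455, 3002 and 3326 in HZ. At 4 wk they were 7980, 6848, 8869, 8247 and 10220 in PZ and 3680, 3990, 2692, 2551 and 3374 in HZ. The zones did not overlap at 1 wk and did not overlap at 4 wk, and HZ was lower, with log2 differences of −0.84 ± 0.13 (SE, adjusted p = 2.85e-06) and −1.38 ± 0.13 (SE, adjusted p = 2.98e-10). In the mouse phalanx, the counts were 3108, 3081, 2973 and 3805 in PZ and 4238, 3992, 3736, 3925 and 2985 in HZ, where the ranges overlapped and the difference was 0.22 ± 0.14 (SE, adjusted p = 0.232). Phalanx PZ was lower than tibia PZ, at −0.90 ± 0.14 (SE, adjusted p = 4.84e-05), and the difference between phalanx HZ and tibia HZ was 0.16 ± 0.13 (SE, adjusted p = 0.418), which was not called. In the rat, tibia PZ held 9908, 14680, 14490, 17070 and 14920 at 1 wk and 23240, 20940, 28620, 24080 and 23330 at 4 wk, a rise of 0.77 ± 0.17 (SE, adjusted p = 0.00118). The mouse rise in PZ was 0.48 ± 0.13 (SE, adjusted p = 0.0163), a call lost under quantile normalization (adjusted p = 0.243) and without 4-wk PZ replicate 5 or 1-wk PZ replicates 1 or 4. Rat HZ held 12350, 14530, 16910, 14220 and 13200 in the 1-wk tibia and 9372, 9665, 7593, 9281 and 7914 in the phalanx, which did not overlap, a difference of −0.70 ± 0.17 (SE, adjusted p = 0.00139).

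Chaperone genes are known targets of the factors Atf6 and Xbp1, which bind an ER stress response element (ERSE). Mouse promoter sequence from RefSeq (GRCm38.p6, 250 bases before to 50 after the start) was found for 33 of the 40 members and for 27025 genes in all. The ERSE, searched on both strands as CCAAT, then 9 bases of any kind, then CCACG, lay in 7 of the 33 member promoters (21.2%) and in 37 of all 27025 (0.137%). The 7 were Hspa5, Hsp90b1, Dnajc3 and Creld2 of the lumen chaperones and Calr, Canx and Pdia6 of the lectin chaperones and isomerases. The shorter ERSE-II, which is ATTGG and CCACG with 1 base of any kind between them, lay in Dnajb11 and Herpud1 (6.06%, against 0.0444% of all), and the core of the unfolded protein response element (UPRE), TGACGTGG, in Sec23a and Sec24d (6.06%, against 0.714%). The C/EBP-ATF element, TGATGNAA, which Atf4 and Ddit3 are known to bind, lay in Herpud1 only (3.03%, against 4.51%). ERSE, ERSE-II and UPRE share the letters CCACG on one strand or the other. A match is a description of letters and not of binding, and no match was looked for outside these 300 bases. Chaperone genes known as such targets are part of the member list, so a share above that of all genes is no independent result. The 5 promoters printed here show a single ERSE, a doubled ERSE, an ERSE on the reverse strand, an ERSE-II and a UPRE core, with each motif in capitals. They lie at chr2:34771840-34772139 (plus strand) for Hspa5, chr10:86705395-86705694 (minus) for Hsp90b1, chr8:84846882-84847181 (minus) for Calr, chr16:22857595-22857894 (plus) for Dnajb11 and chr12:59011968-59012267 (minus) for Sec23a, each read along the gene's strand.
Hspa5: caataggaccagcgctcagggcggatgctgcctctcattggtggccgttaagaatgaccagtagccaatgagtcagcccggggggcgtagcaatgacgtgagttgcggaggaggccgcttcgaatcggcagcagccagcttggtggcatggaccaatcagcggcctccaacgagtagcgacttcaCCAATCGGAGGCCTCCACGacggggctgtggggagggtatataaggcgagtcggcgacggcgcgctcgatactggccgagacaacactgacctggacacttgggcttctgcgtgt
Hsp90b1: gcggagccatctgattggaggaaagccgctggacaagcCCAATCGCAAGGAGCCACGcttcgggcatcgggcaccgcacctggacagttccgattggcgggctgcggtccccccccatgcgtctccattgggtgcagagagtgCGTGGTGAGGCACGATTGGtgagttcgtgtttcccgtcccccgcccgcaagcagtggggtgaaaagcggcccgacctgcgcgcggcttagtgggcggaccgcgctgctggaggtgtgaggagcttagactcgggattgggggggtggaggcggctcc
Calr: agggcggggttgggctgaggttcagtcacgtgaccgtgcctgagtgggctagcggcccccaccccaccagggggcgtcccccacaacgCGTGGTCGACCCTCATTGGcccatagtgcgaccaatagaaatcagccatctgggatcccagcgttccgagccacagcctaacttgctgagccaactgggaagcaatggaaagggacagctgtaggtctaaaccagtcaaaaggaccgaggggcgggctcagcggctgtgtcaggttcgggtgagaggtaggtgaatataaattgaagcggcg
Dnajb11: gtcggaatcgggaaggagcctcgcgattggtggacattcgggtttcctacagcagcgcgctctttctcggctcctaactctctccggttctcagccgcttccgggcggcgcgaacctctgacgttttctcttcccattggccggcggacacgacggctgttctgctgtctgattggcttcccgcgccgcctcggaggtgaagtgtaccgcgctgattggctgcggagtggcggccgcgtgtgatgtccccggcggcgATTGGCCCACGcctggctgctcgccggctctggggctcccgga
Sec23a: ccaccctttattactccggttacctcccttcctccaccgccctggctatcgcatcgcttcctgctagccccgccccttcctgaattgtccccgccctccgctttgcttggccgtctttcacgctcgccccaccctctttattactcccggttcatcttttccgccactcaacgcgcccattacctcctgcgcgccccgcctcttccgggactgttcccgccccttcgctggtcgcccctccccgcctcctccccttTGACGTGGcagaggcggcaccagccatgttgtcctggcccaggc

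The first base of the ERSE stood 65 bases before the start in Hspa5, and the motifs of Hsp90b1 stood 212 and 107 bases before the start, the latter as the reverse complement. In Calr the reverse complement began 162 bases before the start. Rat promoters were not analysed here.

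Hsp90b1, the Hsp90 of the ER, followed Hspa5 in mouse, with zone differences of −0.95 ± 0.12 (SE, adjusted p = 4.72e-08) in the 1-wk tibia and −1.05 ± 0.12 (SE, adjusted p = 9.33e-09) in the 4-wk tibia, and a difference of −0.70 ± 0.12 (SE, adjusted p = 0.000369) between phalanx PZ and tibia PZ. In the rat, the phalanx counts were 25530, 31910, 25310, 34250 and 13350 in PZ and 11170, 12330, 12580, 13430 and 13260 in HZ, lower in HZ, at −0.99 ± 0.25 (SE, adjusted p = 0.00205). The ranges overlapped, since PZ replicate 5, at 13350, lay below the other 4 PZ libraries. The rat 1-wk tibia PZ held a library of the same kind, replicate 1 at 15910, against 35170 to 37140 in the others.

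Of the cochaperones that help Hspa5, Dnajb11, Sdf2l1 and Manf were higher in HZ of the rat 1-wk tibia. For Dnajb11, a J-domain protein that hands clients to Hspa5, the counts were 1070, 2056, 1985, 2491 and 2073 in PZ and 2354, 3457, 3637, 3914 and 3350 in HZ, and the rat phalanx HZ held 1302, 1339, 1265, 1585 and 1232. The tibia zones overlapped, with a difference of 0.82 ± 0.22 (SE, adjusted p = 0.00262), and every phalanx HZ library lay below every tibia HZ library (−1.30 ± 0.22 SE, adjusted p = 2.04e-05). In the mouse, tibia HZ held 549, 1067, 616, 744 and 1099 and phalanx HZ 1087, 1009, 1222, 1176 and 916, a difference of 0.46 ± 0.16 (SE, adjusted p = 0.0358) that was lost in 4 settings and without 6 single libraries (adjusted p up to 0.328). Sdf2l1, a partner of Dnajb11, was at 47.6, 187, 243, 216 and 161 in rat 1-wk tibia PZ and 331, 474, 326, 609 and 228 in HZ. It was higher in HZ by 1.31 ± 0.37 (SE, adjusted p = 0.00505), with ranges that overlapped, and in PZ it was higher at 4 wk by 1.83 ± 0.37 (SE, adjusted p = 0.000613).

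Manf, a small ER protein that binds Hspa5, went in opposite directions in the 2 species in the 1-wk tibia. The mouse counts were 325, 423, 446, 387 and 495 in PZ and 272, 346, 106, 385 and 255 in HZ, with a difference of −0.72 ± 0.24 (SE, adjusted p = 0.0165). The rat counts were 153, 137, 86.1, 132 and 130.4 in PZ and 265, 134, 241, 246 and 164 in HZ, with a difference of 0.69 ± 0.28 (SE, adjusted p = 0.0472). The mouse zones overlapped and the rat zones overlapped. The rat call was lost in 6 settings and without 7 single libraries (adjusted p up to 0.138) and the mouse call in 2 settings and without 1 single library (adjusted p up to 0.101). Exons of Manf overlap those of neighbouring genes in the mouse annotation.

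Dnajc3, which inhibits Eif2ak3 and assists Hspa5, was higher at 4 wk in the PZ of both species, by 0.82 ± 0.14 (SE, adjusted p = 0.00011) in mouse and 0.84 ± 0.23 (SE, adjusted p = 0.0111) in rat. In HZ of the mouse it was at 853, 742, 969, 999 and 830.1 in the 1-wk tibia, 1368, 1921, 1166, 1398 and 1505 in the 4-wk tibia and 1349, 1394, 1554, 1289 and 1301 in the phalanx. The 1-wk tibia libraries were the lowest and overlapped neither of the other groups, with an age difference of 0.73 ± 0.14 (SE, adjusted p = 0.000304) and a bone difference of 0.65 ± 0.14 (SE, adjusted p = 0.000717). In rat HZ the order was turned, with 3217, 3244, 3443, 2955 and 3347 in the 1-wk tibia and 1685, 1624, 1480, 1451 and 1419 in the phalanx, a difference of −1.08 ± 0.23 (SE, adjusted p = 0.00056). Dnajb9, a J-domain protein that is among the strongest known targets of Xbp1, was higher in phalanx HZ than PZ in both species, by 1.49 ± 0.33 (SE, adjusted p = 0.000624) in mouse and 0.60 ± 0.20 (SE, adjusted p = 0.0144) in rat. Its counts were 76.1, 69.3, 69.4 and 139 in mouse phalanx PZ and 258, 174, 149.8, 344 and 336 in HZ, which did not overlap. The other 4 zone differences, from −0.02 to 0.50, were not called. By the difference of differences, the zone difference of Dnajb9 was not called between the phalanx and the 1-wk tibia in either species. The rat Dnajc3 rise was lost without 1-wk tibia PZ replicate 1 (adjusted p up to 0.0568), and the rat Dnajb9 call without phalanx PZ replicate 2 (adjusted p up to 0.0828). Creld2 and Hyou1 were lower in mouse 4-wk tibia HZ, at −1.32 ± 0.26 (SE, adjusted p = 0.000143) and −1.08 ± 0.20 (SE, adjusted p = 4.66e-05).

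The lectin chaperones and disulfide isomerases are Calr, Canx, P4hb, Pdia3, Pdia4 and Pdia6. In mouse, all 6 were lower in HZ of the 1-wk tibia, from −1.02 to −0.45 (23.7% of all genes), all 6 were lower in HZ of the 4-wk tibia, from −1.33 to −0.64 (16.6%), and all 6 were lower in phalanx PZ than in tibia PZ, from −0.80 to −0.57 (1.86%). In the other mouse comparisons of groups, 3 of 6 were higher at 4 wk in PZ (5.19% of all genes). At 4 wk in HZ, 1 was higher (8.83%) and 1 lower (6.72%). In phalanx HZ, 1 of 6 was higher both against phalanx PZ (17.9%) and against tibia HZ (9.77%). In the rat 1-wk tibia 1 was higher in HZ (Calr; 22.6% of all genes) and 1 lower (P4hb; 19.0%). In rat phalanx HZ 5 of 6 were lower than in tibia HZ (16.3%), Pdia6 being the exception (−0.06 ± 0.14 SE, adjusted p = 0.753).

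Calr (calreticulin), which holds glycoproteins in the folding cycle and stores calcium, was called in opposite directions in the 1-wk tibia. The mouse counts were 8024, 10000, 8364, 7755 and 7458 in PZ and 7010, 4862, 7139, 5782 and 5717 in HZ. The rat counts were 10730, 12160, 12290, 12760 and 10770 in PZ and 12640, 16360, 19370, 16450 and 14830 in HZ. HZ was lower in mouse, at −0.45 ± 0.11 (SE, adjusted p = 0.000989), and higher in rat, at 0.43 ± 0.13 (SE, adjusted p = 0.00715), and the zones did not overlap in mouse and overlapped in rat. Rat phalanx HZ, at 7668, 8664, 8429, 9005 and 8698, lay wholly below rat tibia HZ (−0.90 ± 0.13 SE, adjusted p = 1.88e-06). Reads of Calr could be shared with a pseudogene, Calr-ps, that the mouse annotation lists.

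Canx (calnexin), the membrane-bound counterpart of Calr, was at 4502, 4908, 4343, 4173 and 5295 in mouse 1-wk tibia PZ and 3424, 2835, 2993, 2712 and 3620 in HZ. In the mouse phalanx it was at 3113, 3052, 2620 and 3163 in PZ and 2993, 3541, 3187, 2659 and 3400 in HZ. The tibia zones did not overlap (−0.58 ± 0.10 SE, adjusted p = 1.83e-05), the phalanx zones overlapped (0.08 ± 0.11 SE, adjusted p = 0.62), and phalanx PZ was lower than tibia PZ, at −0.64 ± 0.11 (SE, adjusted p = 0.000209). In the rat it was phalanx HZ that was low, at 5998, 7448, 7357, 7506 and 7319 against 10450, 11700, 13120, 12250 and 13910 in tibia HZ, a difference of −0.78 ± 0.14 (SE, adjusted p = 7.02e-05).

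Pdia3, the isomerase that works with Calr and Canx, was higher in HZ than PZ of the mouse phalanx and lower in HZ of the mouse tibia. The counts were 2010, 2083, 2336 and 2610 in phalanx PZ and 3914, 3113, 3513, 3612 and 2177 in phalanx HZ. In the tibia they were 3102, 3852, 3327, 3061 and 3908 in PZ and 2152, 2435, 2697, 2010 and 2272 in HZ. Replicate 5 was the lowest phalanx HZ library, at 2177, inside the range of phalanx PZ. The zone difference was 0.51 ± 0.13 (SE, adjusted p = 0.003) in the phalanx and −0.58 ± 0.13 (SE, adjusted p = 0.000357) in the tibia, and rat phalanx HZ was lower than rat tibia HZ, at −0.67 ± 0.20 (SE, adjusted p = 0.00939).

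P4hb, which is both a disulfide isomerase and a subunit of the collagen prolyl 4-hydroxylase, was lower in HZ of the tibia at both ages and in both species. In the 4-wk mouse tibia the counts were 16370, 15390, 16540, 18760 and 19310 in PZ and 6569, 6358, 7799, 6530 and 6982 in HZ. In the 4-wk rat tibia they were 20180, 29950, 24580, 25890 and 25120 in PZ and 12190, 14120, 19300, 16510 and 11740 in HZ. The zones did not overlap in the mouse and did not overlap in the rat, with differences of −1.33 ± 0.12 (SE, adjusted p = 1.2e-10) and −0.78 ± 0.19 (SE, adjusted p = 0.00224). P4hb was also lower in phalanx PZ than in tibia PZ in both species, at −0.57 ± 0.13 (SE, adjusted p = 0.00457) and −0.76 ± 0.19 (SE, adjusted p = 0.00575), and higher in tibia PZ at 4 wk than at 1 wk, by 0.73 ± 0.12 (SE, adjusted p = 0.000104) and 0.57 ± 0.19 (SE, adjusted p = 0.0322). The rat age call was lost in 1 setting and without 7 single libraries (adjusted p up to 0.135), the highest p being that without 1-wk tibia PZ replicate 1.

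**Figure D3:**
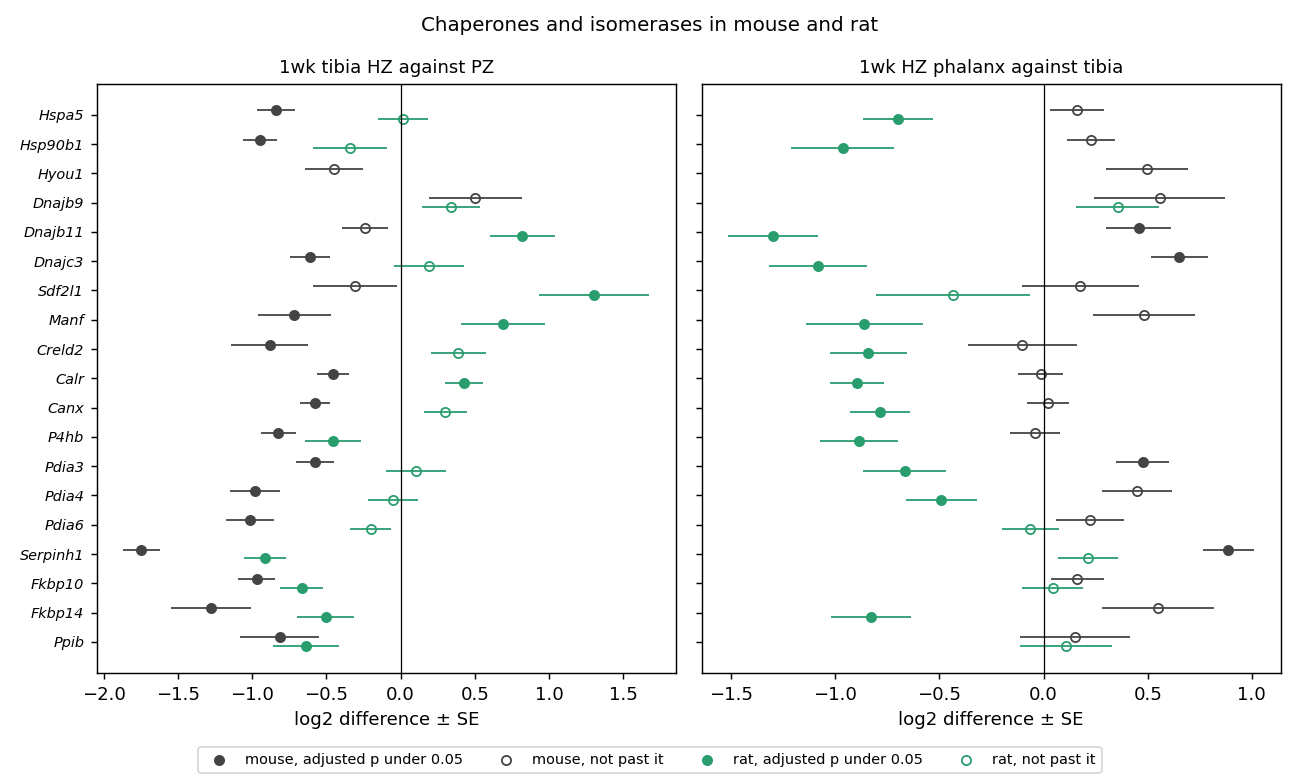
Log2 differences of the chaperones and isomerases, with bars of 1 SE, between HZ and PZ of the 1-wk tibia (left) and between the HZ of phalanx and tibia at 1 wk (right), in mouse (dark) and rat (green). Filled points have an adjusted p under 0.05. In the left plot Calr lies at −0.45 in mouse and 0.43 in rat, and in the right plot Dnajb11 lies at 0.46 in mouse and −1.30 in rat.

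The 4 collagen chaperones, Serpinh1, Fkbp10, Fkbp14 and Ppib, were all lower in HZ of the tibia at 1 wk and at 4 wk in both species (23.7% and 16.6% of all genes in mouse, 19.0% and 7.82% in rat), and in the phalanx 2 of 4 were lower in mouse (17.2%) and 1 of 4 in rat (17.7%). Serpinh1, a chaperone that binds triple-helical procollagen and little else, had counts of 9586, 12840, 10610, 10290 and 10210 in mouse 1-wk tibia PZ and 2507, 3055, 4249, 3432 and 2901 in HZ. At 4 wk they were 17600, 17340, 18620, 19140 and 22070 in PZ and 4355, 4653, 3712, 3780 and 5457 in HZ. No PZ library overlapped the HZ libraries, and HZ was lower, at −1.74 ± 0.12 (SE, adjusted p = 2.52e-13) and −2.12 ± 0.12 (SE, adjusted p = 7.07e-15). In the mouse phalanx the counts were 7530, 7780, 6944 and 8624 in PZ and 5562, 4629, 6582, 6020 and 6893 in HZ. The phalanx zones did not overlap either, but HZ was lower at −0.39 ± 0.13 (SE, adjusted p = 0.0198), a call lost under quantile normalization (adjusted p = 0.433) and without phalanx HZ replicate 2 or PZ replicate 5, and phalanx HZ was above tibia HZ by 0.89 ± 0.12 (SE, adjusted p = 2.8e-06).

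In the rat, Serpinh1 was at 20100, 18290, 17770, 20150 and 18840 in 1-wk tibia PZ and 9129, 10860, 11820, 9317 and 9619 in HZ. At 4 wk it was at 30360, 49960, 37300, 37050 and 43570 in PZ and 18530, 19060, 27610, 22060 and 22400 in HZ. HZ was lower, at −0.91 ± 0.14 (SE, adjusted p = 3.68e-06) and −0.85 ± 0.14 (SE, adjusted p = 4.56e-05), and the zones did not overlap at 1 wk or at 4 wk. In the rat phalanx the zones overlapped, at 11370, 14640, 10130, 15700 and 12810 in PZ and 10440, 12920, 9748, 15030 and 11180 in HZ (−0.12 ± 0.14 SE, adjusted p = 0.523). Serpinh1 was also the member that rose with age in both zones of both species, by 0.83 in mouse PZ, 0.45 in mouse HZ, 1.04 in rat PZ and 1.10 in rat HZ (adjusted p of 2.22e-05, 0.0112, 2.13e-06 and 1.76e-06). The mouse HZ call was lost in 3 settings (adjusted p up to 0.166).

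The prolyl isomerase Fkbp10, which with Serpinh1 is needed for bone collagen in humans, was at 4590, 4471, 4675, 5231 and 5351 in mouse 4-wk tibia PZ and 1473, 1806, 1207, 1132 and 1817 in HZ. It was at 3531, 4567, 4090, 4133 and 4249 in 1-wk PZ and 2181, 1835, 2416, 2081 and 2001 in 1-wk HZ. HZ was lower, at −0.97 ± 0.13 (SE, adjusted p = 1.44e-07) at 1 wk and −1.73 ± 0.13 (SE, adjusted p = 1.45e-12) at 4 wk, and with age HZ fell by 0.52 in mouse (adjusted p = 0.00439) and rose by 0.44 in rat (adjusted p = 0.0376). The rat rise was lost in 1 setting and without 7 single libraries (adjusted p up to 0.104), and the mouse fall in 3 settings (adjusted p up to 0.135). Fkbp14 was lower in HZ at −2.24 ± 0.27 (SE, adjusted p = 5.95e-08) in the 4-wk mouse tibia, and in the rat phalanx, at 1137, 1150, 876, 1343 and 851 in PZ and 402, 619, 597, 457 and 531 in HZ, the zones did not overlap (−1.04 ± 0.19 SE, adjusted p = 6.1e-05). Ppib (cyclophilin B) was lower in tibia HZ, at −0.81 and −1.58 in mouse and at −0.64 and −0.73 in rat at 1 and 4 wk, and rose in PZ with age by 1.08 ± 0.27 (SE, adjusted p = 0.0077) and 0.66 ± 0.22 (SE, adjusted p = 0.0363). The rat rise was lost in 2 settings and without 8 single libraries (adjusted p up to 0.0942). Exons of Fkbp10, Fkbp14 and Ppib overlap those of other genes in the mouse annotation.

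**Figure D4:**
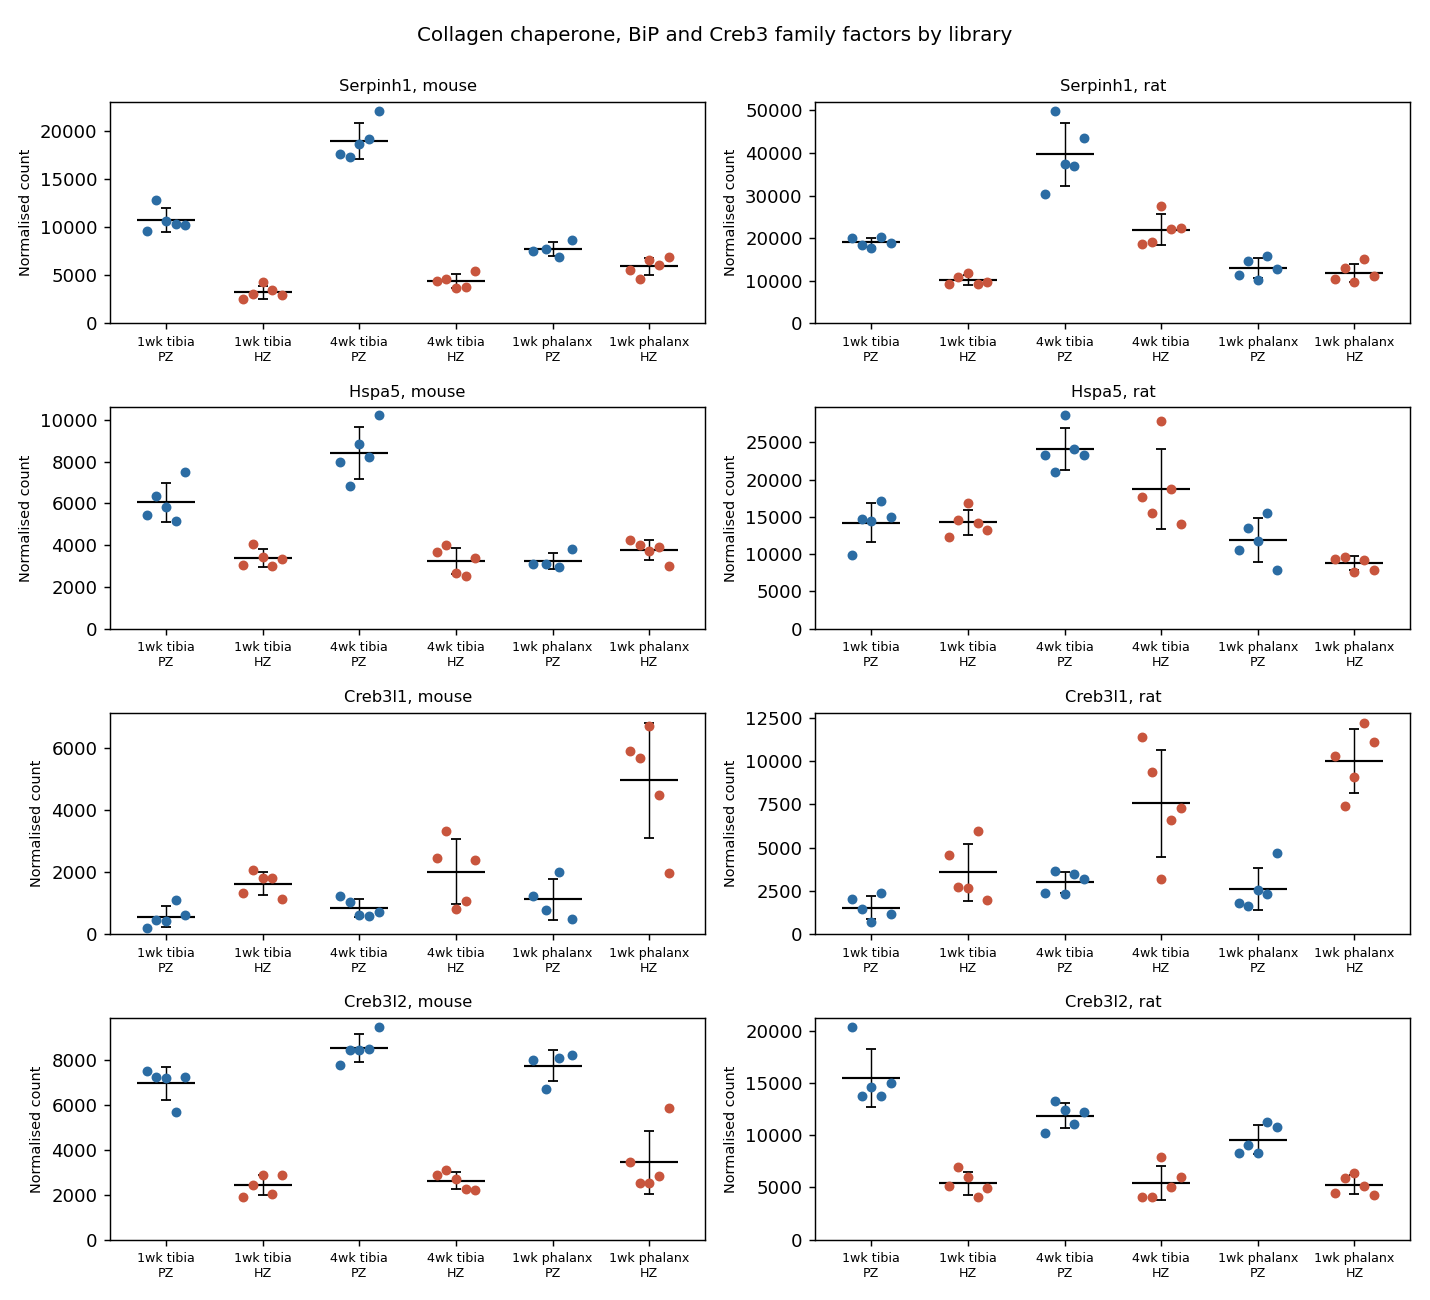
Normalized counts per library (linear axis from 0) of the collagen chaperone Serpinh1, the chaperone Hspa5 and the factors Creb3l1 and Creb3l2 in mouse and rat. Points are libraries, black lines are means and bars are SD, with PZ in blue and HZ in red. Serpinh1 and Creb3l2 lie lower in HZ of the tibia in both species, and Creb3l1 lies higher in phalanx HZ (rat 7402 to 12220) than in phalanx PZ (rat 1637 to 4713).

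Proteins enter the ER through the translocon and leave it in COPII vesicles. In the mouse 4-wk tibia, all 3 translocon members (Sec61a1, Sec61b and Ssr1) and 6 of the 7 COPII and exit members were lower in HZ (16.6% of all genes), Trappc2 being the exception, and in the 1-wk tibia 2 of 3 and 6 of 7 were lower (23.7%). In the rat tibia, Sec31a was the COPII member lower in HZ at 1 wk (−0.63 ± 0.14 SE, adjusted p = 0.000647), and Lman1 at 4 wk (−0.55 ± 0.17 SE, adjusted p = 0.0155), while Ssr1 was the translocon member lower at 4 wk, at −0.41 ± 0.15 (SE, adjusted p = 0.0389). The Lman1 call was lost without 4-wk tibia HZ replicate 5 or PZ replicate 3 (adjusted p up to 0.0672), and the Ssr1 call in 0 settings and without 7 single libraries (adjusted p up to 0.125). Trappc2, whose loss causes spondyloepiphyseal dysplasia tarda in humans, had mouse counts of 0 to 42.3.

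Lman1, a lectin that carries glycoproteins out of the ER, was at 3467, 4139, 3509, 3429 and 4186 in mouse 1-wk tibia PZ and 1523, 1183, 1596, 1266 and 1020 in HZ. At 4 wk it was at 5150, 4915, 5346, 5548 and 6212 in PZ and 1818, 1651, 1081, 1224 and 1761 in HZ. The zones did not overlap at 1 wk or 4 wk, with HZ lower, at −1.52 ± 0.15 (SE, adjusted p = 4.49e-10) and −1.88 ± 0.15 (SE, adjusted p = 9.09e-12). In the phalanx HZ was lower in mouse, at −0.56 ± 0.16 (SE, adjusted p = 0.00513), and in rat, at −0.58 ± 0.17 (SE, adjusted p = 0.00535). Tibia PZ rose from 1 to 4 wk in both species, by 0.54 ± 0.15 (SE, adjusted p = 0.0183) and 0.70 ± 0.17 (SE, adjusted p = 0.00273). Between the HZ of phalanx and tibia, the mouse was higher (0.49 ± 0.15 SE, adjusted p = 0.0173) and the rat lower (−0.82 ± 0.17 SE, adjusted p = 0.000217). The mouse age call was lost in 1 setting and without 2 single libraries (adjusted p up to 0.0765) and the mouse HZ call in 3 settings and without 1 single library (adjusted p up to 0.198).

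Sec24d, the cargo-binding part of the inner coat, was at 2000, 1973, 2121, 2024 and 2057 in mouse 1-wk tibia PZ, 1994, 2209, 2027, 2443 and 2544 in 4-wk tibia PZ and 2142, 1935, 2182 and 1829 in phalanx PZ. In HZ it was at 1445, 1439, 1263, 1131 and 1331 in the 1-wk tibia, at 972, 966, 921, 797 and 958 in the 4-wk tibia and at 1070, 1142, 1392, 1096 and 1449 in the phalanx. The PZ groups overlapped each other, the HZ libraries of each growth plate lay below its PZ libraries, and HZ was lower at 4 wk (−0.52 ± 0.12 SE, adjusted p = 0.00221, lost with only the groups compared). Sec23a, its partner and a known target of Creb3l2 in mouse chondrocytes, was at 1996, 1831, 1963, 1719 and 2409 in 4-wk tibia PZ and 904, 977, 1131, 828.9 and 858 in HZ, lower in HZ at −1.08 ± 0.14 (SE, adjusted p = 1.85e-07). In the rat, whose Sec24d is not listed, Sec23a had zone differences of 0.15, 0.08 and −0.14 in the 1-wk tibia, 4-wk tibia and phalanx, none of them called.

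Sec31a, of the outer coat, was at 8021, 8627, 8287, 7296 and 6797 in rat tibia HZ and 11220, 11790, 11840, 12120 and 10840 in rat phalanx HZ, which did not overlap, and it was higher in phalanx HZ in rat (0.57 ± 0.14 SE, adjusted p = 0.00241) and mouse (0.41 ± 0.11 SE, adjusted p = 0.00766, lost in 3 settings with an adjusted p up to 0.19). Of the translocon, Sec61b rose with age in PZ, from 296, 334, 224, 306 and 357 at 1 wk to 519, 517, 634, 553 and 731 at 4 wk in mouse (0.96 ± 0.23 SE, adjusted p = 0.00612). In rat PZ it went from 737, 826, 696, 1131 and 1031 to 1347, 2363, 1930, 1863 and 2126 (1.12 ± 0.22 SE, adjusted p = 0.000381), and the ages did not overlap in either species. Rat Sec13, the partner of Sec31a, rose in PZ and HZ, by 0.67 and 0.57 (adjusted p = 0.000852 and 0.00593).

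The sensors of the unfolded protein response were called in different directions in the mouse zones. Atf6, which is cut in the Golgi to free a transcription factor, was higher in HZ in all 3 mouse growth plates. Its counts were 684, 824, 709, 682 and 899.5 in 1-wk tibia PZ and 907, 2059, 1344, 1649 and 1416 in HZ. In the phalanx they were 839, 1049, 1097 and 945 in PZ and 2953, 2475, 2496, 2202 and 1214 in HZ. In the tibia and in the phalanx every HZ library lay above every PZ library, the lowest of them being tibia HZ replicate 1, at 907, and phalanx HZ replicate 5, at 1214. HZ was higher by 0.91 ± 0.18 (SE, adjusted p = 0.000124) at 1 wk, 0.74 ± 0.18 (SE, adjusted p = 0.00163) at 4 wk and 1.15 ± 0.20 (SE, adjusted p = 1.93e-05) in the phalanx. In the rat the differences were 0.26, 0.26 and 0.30 (adjusted p of 0.135, 0.188 and 0.0811), so none was called. Eif2ak3, which phosphorylates eIF2alpha and slows translation, went the other way in mouse, lower in HZ at −0.86 ± 0.20 (SE, adjusted p = 0.000805), −0.998 ± 0.20 (SE, adjusted p = 0.000201) and −0.84 ± 0.22 (SE, adjusted p = 0.00245) in the 1-wk tibia, 4-wk tibia and phalanx. In the rat it was lower in phalanx HZ, at −0.46 ± 0.16 (SE, adjusted p = 0.0185), a call lost in 2 settings and without 1 single library (adjusted p up to 0.0767).

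Ern1, the kinase and nuclease that splices Xbp1 mRNA, was at 273, 506, 349, 465 and 538 in mouse 1-wk tibia PZ and 725, 762, 974, 576 and 519 in HZ. At 4 wk HZ held 179, 281, 343, 242 and 389, and phalanx HZ held 370.4, 246, 534, 505 and 568. The 1-wk tibia HZ libraries, at 519 and above, lay over all 4-wk HZ libraries and overlapped those of PZ and of phalanx HZ. HZ was higher at 1 wk by 0.75 ± 0.23 (SE, adjusted p = 0.00948), and in HZ the 4-wk tibia was lower, at −1.32 ± 0.23 (SE, adjusted p = 0.000162), and the phalanx too, at −0.70 ± 0.23 (SE, adjusted p = 0.0315). The bone call was lost in 3 settings and without 5 single libraries (adjusted p up to 0.188). Xbp1 itself, the factor that Ern1 activates, was lower in HZ of the mouse tibia, at −0.49 ± 0.14 (SE, adjusted p = 0.00442) at 1 wk and −0.81 ± 0.14 (SE, adjusted p = 2.06e-05) at 4 wk. Gene counts do not separate the spliced from the unspliced form. In the rat the differences of Ern1 ran from −0.77 to 0.68 over the 9 comparisons, and none was called.

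Ddit3 (CHOP), which promotes cell death under lasting ER stress, was highest in 1-wk tibia HZ. The mouse counts were 203, 129.9, 143, 91.9 and 122 in PZ and 288, 726, 250.4, 472 and 116 in HZ. In 4-wk tibia HZ they were 254, 185, 81.3, 66.9 and 166, and in phalanx HZ 104, 124, 156, 79.9 and 113. The 5 libraries of 1-wk tibia HZ were spread, from 116 to 726, and the lowest lay inside the range of PZ. HZ was higher by 1.21 ± 0.38 (SE, adjusted p = 0.0101), and HZ was lower at 4 wk (−1.21 ± 0.38 SE, adjusted p = 0.0283) and in the phalanx (−1.45 ± 0.38 SE, adjusted p = 0.00677). The zone call was lost without tibia HZ replicate 2 (adjusted p = 0.0535), the age call in 4 settings and without 4 single libraries (adjusted p up to 0.145), and the bone call in 3 settings (adjusted p up to 0.0738). In the rat Ddit3 was at 9.91, 0, 7.49, 0 and 7.5 in 1-wk tibia PZ and 17.2, 22.9, 33.5, 8.54 and 7.72 in HZ, with HZ higher by 2.13 ± 0.85 (SE, adjusted p = 0.0438), a call lost in 5 settings and without 5 single libraries (adjusted p up to 0.171). Rn45s and the endothelial markers were also high in mouse 1-wk tibia HZ, the latter at 2045 to 12150 against 63.8 to 452 in PZ (3 of 3 listed), although the endothelial markers were also at 3790 to 9323 in 4-wk tibia HZ and 4536 to 8908 in phalanx HZ, and their part in these differences was not tested.

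Atf4, which is controlled mainly at translation, was lower in mouse HZ of the 4-wk tibia (−0.30 ± 0.11 SE, adjusted p = 0.0307) and of the phalanx (−0.34 ± 0.12 SE, adjusted p = 0.0247), and lower in phalanx HZ than in tibia HZ (−0.41 ± 0.11 SE, adjusted p = 0.00792), a call lost in 4 settings (adjusted p up to 0.203). The 4-wk tibia call was lost without 5 single libraries (adjusted p up to 0.096) and the phalanx call in 2 settings and without 2 single libraries (adjusted p up to 0.165). In the rat PZ it rose with age, from 2830, 2121, 2131, 2449 and 2344 to 3735, 3887, 4055, 4160 and 6130 (0.87 ± 0.19 SE, adjusted p = 0.00141), and the ages did not overlap. Of the genes of ER-associated degradation, Edem1, which directs misfolded glycoproteins to disposal, rose in PZ with age in both species, by 1.04 ± 0.21 (SE, adjusted p = 0.00137) in mouse and 0.54 ± 0.13 (SE, adjusted p = 0.00304) in rat. In mouse it was also higher in HZ than PZ at 1 wk, by 0.97 in the tibia and 1.08 in the phalanx (adjusted p = 0.00035 and 0.000299), at 643, 527, 519, 767 and 431 in tibia PZ and 1059, 1644, 1210, 1299 and 619 in tibia HZ, whose ranges overlapped.

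Sel1l, the scaffold of the ubiquitin ligase that clears ER proteins, was higher in rat 1-wk tibia HZ, at 998, 1225, 981, 1188 and 920 in PZ and 1312, 1979, 2111, 1485 and 1989 in HZ (0.73 ± 0.16 SE, adjusted p = 0.000502). The zones did not overlap, and HZ was lower again at 4 wk (−0.49 ± 0.16 SE, adjusted p = 0.0406) and in the phalanx (−0.81 ± 0.16 SE, adjusted p = 0.000217). The age call was lost in 3 settings and without 7 single libraries (adjusted p up to 0.119). Herpud1, another component of that complex, rose in rat PZ with age by 1.51 ± 0.30 (SE, adjusted p = 0.000537), and in mouse it was lower in phalanx HZ than in tibia HZ, at −0.92 ± 0.26 (SE, adjusted p = 0.0106). Replicate 1 of mouse 1-wk tibia HZ, at 1043, lay above the other 4 at 282 to 476, and without it the mouse call was lost (adjusted p = 0.0552).

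**Figure D5:**
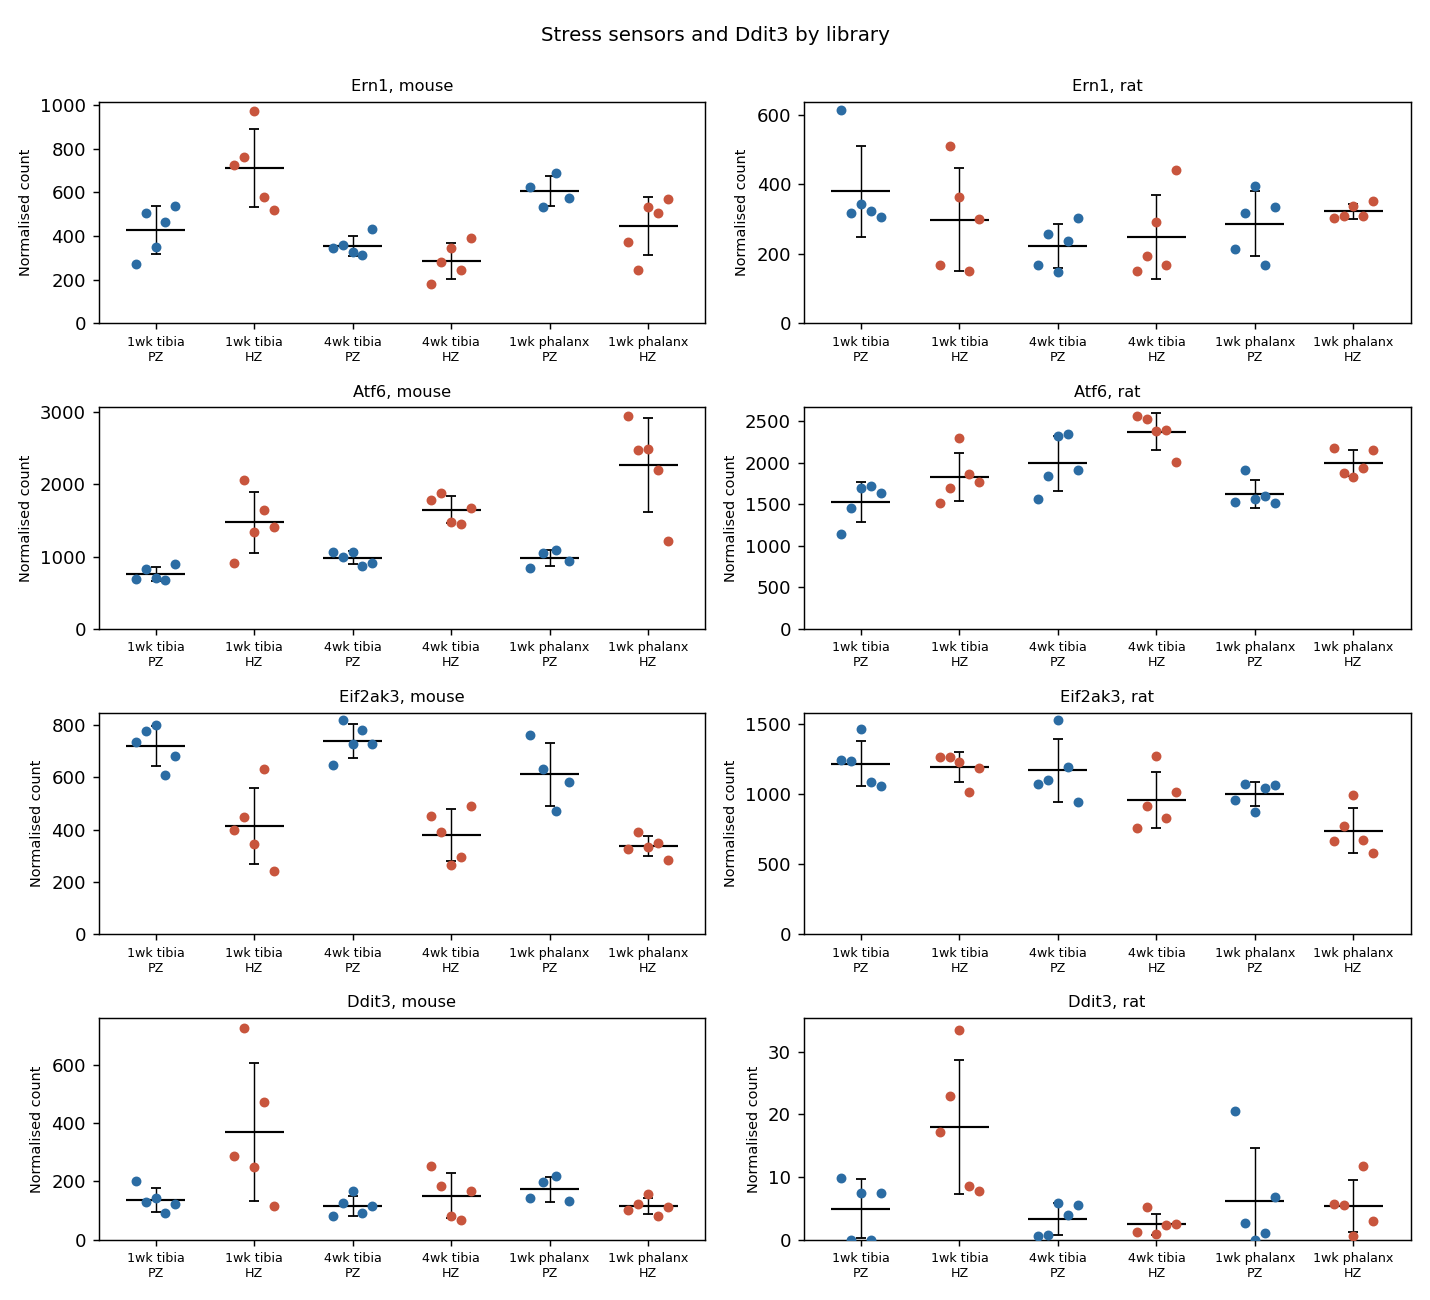
Normalized counts per library (linear axis from 0) of the stress sensors Ern1, Atf6 and Eif2ak3 and of Ddit3 in mouse and rat. Points are libraries, black lines are means and bars are SD, with PZ in blue and HZ in red. Mouse Atf6 lies higher and Eif2ak3 lower in HZ, mouse Ern1 and Ddit3 are highest in 1-wk tibia HZ, and rat Ddit3 stays at 0 to 33.5.

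The related factors Creb3l1 and Creb3l2 were called in opposite directions between the zones. Creb3l2, the factor of the chondrocyte secretory program, was at 7522, 7228, 7171, 5665 and 7223 in mouse 1-wk tibia PZ and 1923, 2415, 2862, 2048 and 2883 in HZ. In the rat it was at 20340, 13700, 14590, 13700 and 14990 in PZ and 5093, 6926, 6044, 4072 and 4947 in HZ. HZ was lower in all 6 growth plates, at −1.53, −1.71 and −1.24 in the mouse 1-wk tibia, 4-wk tibia and phalanx and at −1.52, −1.17 and −0.87 in the rat, with adjusted p from 2.19e-10 to 8.3e-05. PZ and HZ did not overlap in any of the 6, although mouse phalanx HZ replicate 5, at 5860, came closer to the PZ range of 6711 to 8212 than the other 4, at 2536 to 3475. In rat PZ, Creb3l2 was lower in phalanx, at 8304, 9053, 8336, 11250 and 10800, than in tibia (−0.69 ± 0.17 SE, adjusted p = 0.00451).

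Creb3l1, known from bone-forming cells, was higher in HZ of 5 of the 6 growth plates. In the mouse phalanx it was at 1228, 775, 2006 and 496 in PZ and 5927, 5697, 6731, 4489 and 1993 in HZ. In the rat phalanx it was at 1821, 1637, 2586, 2301 and 4713 in PZ and 10300, 7402, 9065, 12220 and 11110 in HZ. The rat zones did not overlap, and the mouse zones overlapped, with HZ replicate 5 at 1993 and PZ replicate 4 at 2006. HZ was higher by 2.22 ± 0.47 (SE, adjusted p = 0.000648) in mouse and 2.03 ± 0.34 (SE, adjusted p = 3.43e-05) in rat, and in the tibia by 1.70 ± 0.44 (SE, adjusted p = 0.00302) at 1 wk in mouse and by 1.22 ± 0.34 (SE, adjusted p = 0.00522) and 1.23 ± 0.34 (SE, adjusted p = 0.00963) at 1 and 4 wk in rat. In the mouse 4-wk tibia the difference was 1.13 ± 0.44 (SE, adjusted p = 0.0507), which missed the threshold. By the difference of differences, the mouse zone difference of Creb3l1 was not called between the 4-wk and the 1-wk tibia. Phalanx HZ was above tibia HZ by 1.52 ± 0.44 (SE, adjusted p = 0.0175) in mouse and 1.58 ± 0.34 (SE, adjusted p = 0.00073) in rat.

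The osteoblast markers were measured in the same libraries. They summed to 71170 to 278800 in rat phalanx PZ and 469300 to 990500 in HZ, and to 7193 to 41360 in rat 1-wk tibia PZ and 169300 to 456300 in HZ, with none of the 6 at 0. In mouse they summed to 50580 to 157900 in phalanx PZ and 87060 to 758200 in HZ, and to 13080 to 131100 in 1-wk tibia PZ and 91210 to 240800 in HZ. In the 4-wk tibia they summed to 42870 to 187800 in mouse PZ and 125000 to 425500 in mouse HZ. In rat 4-wk tibia they summed to 4928 to 123800 in PZ and 186700 to 1493000 in HZ. The part of osteoblast RNA in the Creb3l1 differences was not tested.

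The zone difference itself was compared between growth plates, as a difference of differences in the same fit, so that these contrasts share the 1-wk tibia libraries with each other and with the comparisons above. In mouse, 15 of 40 members had a zone difference more positive in the phalanx than in the 1-wk tibia (4.38% of all genes) and 2 had one more negative (6.19%, and 10.6% in either direction). The 15 held all 6 lectin chaperones and isomerases, 4 of the 9 lumen chaperones and Serpinh1, which had the smallest p (1.36 ± 0.18 SE, adjusted p = 4.41e-06), followed by Pdia3 (1.09 ± 0.18 SE, adjusted p = 0.00015) and Hspa5 (1.06 ± 0.19 SE, adjusted p = 0.000293). The 2 were Ern1 (−1.24 ± 0.34 SE, adjusted p = 0.0156) and Ddit3 (−1.80 ± 0.56 SE, adjusted p = 0.0338), of which the Ddit3 call was lost in 4 settings and without 9 single libraries (adjusted p up to 0.0844). For Hspa5 the bone difference was −0.90 in PZ and 0.16 in HZ (adjusted p = 4.84e-05 and 0.418), and for Serpinh1 it was −0.47 and 0.89 (adjusted p = 0.029 and 2.8e-06). Without phalanx HZ replicate 5 the counts were 14 and 3.

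In the rat, the same contrast was more positive for 2 of 37 members (7.33% of all genes), Serpinh1 (0.79 ± 0.20 SE, adjusted p = 0.00665) and Sec31a (0.60 ± 0.20 SE, adjusted p = 0.0426), and more negative for 5 (8.57%, and 15.9% in either direction), which were Dnajb11 (−1.33 ± 0.31 SE, adjusted p = 0.00281), Canx (−0.77 ± 0.20 SE, adjusted p = 0.00804), Calr (−0.60 ± 0.18 SE, adjusted p = 0.0212), Creld2 (−0.81 ± 0.26 SE, adjusted p = 0.0302) and Dnajc3 (−0.97 ± 0.33 SE, adjusted p = 0.0429). The rat count in either direction was near the share of all genes. Serpinh1 was thus called in the same direction in both species, whereas Calr, Canx and Dnajb11 were called in opposite directions. The Sec31a call was lost in 2 settings and without 12 single libraries (adjusted p up to 0.105) and the Dnajc3 call in 3 settings and without 12 single libraries (adjusted p up to 0.0997), whereas the Calr and Creld2 calls were lost without 2 and 7 single libraries (adjusted p up to 0.0506 and 0.0692). The 7 rat calls fell to 4 without 1-wk tibia HZ replicate 3 or 5, tibia PZ replicate 1 or phalanx PZ replicate 1, and rose to 10 without phalanx PZ replicate 5.

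Between 4 wk and 1 wk in the tibia, the mouse zone difference became more negative for Fkbp10 (−0.76 ± 0.18 SE, adjusted p = 0.0128) and Sec24d (−0.65 ± 0.16 SE, adjusted p = 0.0228), 2 of 40 members (1.60% of all genes), and more positive for 0 (0.841%, and 2.45% in either direction). Both calls were lost under quantile normalization, and the count was 5 without 1-wk HZ replicate 5 and 1 without 4-wk HZ replicate 4 or 4-wk PZ replicate 4 or 5. By limma, 17 of the 40 were at an unadjusted p under 0.05 in either direction. In the rat 0 of 37 were called in either direction (1.53% of all genes higher, 2.82% lower and 4.35% in either direction), with 6 at an unadjusted p under 0.05, 0 by limma-voom on the recovered reads, 1 with array quality weights, and 1 (lower) without 1-wk HZ replicate 1 or 4-wk HZ replicate 3.

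Between mouse and rat, whose libraries are independent, the calls overlapped in part. In the 1-wk tibia, 7 members were lower in HZ in both (Creb3l2, Fkbp10, Fkbp14, P4hb, Ppib, Sec31a and Serpinh1), out of 26 in mouse and 7 in rat. At 4 wk, 9 were lower in both (the same without Sec31a, with Lman1, Pdia6 and Ssr1), out of 31 and 9. In PZ, 9 rose with age in both (Dnajc3, Edem1, Hspa5, Lman1, P4hb, Ppib, Sec61b, Serpinh1 and Ssr1), out of 12 and 21. In PZ between bones, P4hb and Serpinh1 were lower in the phalanx in both, out of 11 and 4, although the mouse Serpinh1 call was lost without any of 5 single libraries. In HZ between bones, Creb3l1 and Sec31a were higher in the phalanx in both, while Dnajb11, Dnajc3, Lman1 and Pdia3 were called higher in mouse and lower in rat. Whether these overlaps exceed those of other genes was not tested.

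Other genes of the same pathways, 80 in mouse and 73 in rat, were counted in the same fits. In mouse tibia HZ, 42 were lower at 1 wk (23.7% of all genes) and 53 at 4 wk (16.6%), with 6 (20.4%) and 1 (18.6%) higher, and in the rat 17 (19.0%) and 16 (7.82%) were lower and 11 (22.6%) and 2 (13.5%) higher. The genes that modify collagen were among them. Of 13 tested in mouse, 11 were lower in HZ of the 1-wk tibia, 11 of the 4-wk tibia and 8 of the phalanx (17.2% of all genes), where 2 were higher (17.9%). Of 12 tested in rat 7, 8 and 7 were lower (17.7% of all genes in the phalanx), with 1 higher in each. In tibia PZ, 24 of 80 in mouse (5.19%) and 22 of 73 in rat (9.63%) were higher at 4 wk, with 0 (3.39%) and 1 (6.45%) lower. Of the genes of translocation and N-glycosylation, 12 of 18 were higher at 4 wk in mouse PZ and 12 of 18 in rat PZ. In phalanx HZ against tibia HZ, 11 were higher (9.77%) and 9 lower (9.20%) in mouse, which is near the shares of all genes, and 6 were higher (19.7%) and 25 lower (16.3%) in rat.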

How the data were processed

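RNA was taken by laser capture microdissection from growth plate zones of mouse and rat bones, amplified and sequenced. The libraries were treated as unpaired in the main fit. The authors aligned reads with STAR 2.4.2, counted genes with featureCounts 1.4.6, normalized the counts by the relative log expression of DESeq2, and deposited log2 values of the normalized count + 1. Whether counting used strand is not given in the sources used here. Exons of Hsp90b1, Dnajb9, Manf, Pdia3, Pdia4, Pdia6, Eif2ak3, Fkbp10, Fkbp14, Ppib, Sec61a1, Sec23a and Trappc2 overlap those of other genes in the mouse annotation, so their counts are less certain. The deposited values fell on whole reads in every library, for values under 200 reads and within 0.05 of a whole read, and reads in genes were summed from them.

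Rows named by dates (26 in mouse, 27 in rat) and second entries of a symbol (216 in rat) were left out, and the row with the highest mean was kept. Genes reaching a normalized count of 10 in 5 or more libraries were fitted with limma 3.58.1 (trend and robust options, R 4.3.3), with all 6 groups of a species in 1 model, since the values are normalized and not counts. The script was tested on simulated data. All adjusted p-values are from this fit, at a threshold of 0.05. Results on one side of it in 1 group and not in another were compared by a difference of differences in the same fit. Alternatives were TMM and quantile normalization, no filter, a pseudocount of 4, only the groups compared with or without the replicate number as a block, array quality weights, each library left out, and limma-voom on the recovered reads, which was chosen after seeing the data. Motifs were searched with Python 3.11.15 and figures drawn with matplotlib 3.10.9.

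The members and lists were chosen with earlier results of these data known. The text names Hspa5, Xbp1, Atf4, Atf6, Ern1, Eif2ak3, Ddit3, Serpinh1, Creb3l1 and Creb3l2, up to 3 members in each direction with the smallest adjusted p in a comparison, members called in both species, and all members where a count was 5 or less. Members named outside it (such as Hsp90b1 in the rat tibia, Sec23a and Trappc2) were chosen after their values were seen. All columns used were matched to a sample (0 unmatched).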

Additional observations from a re-analysis of the deposited data

Results flagged for a closer look

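In 9 of 126 groups of values, 1 library stood apart from the others by Dixon's test (chance gives about 1 in 20 groups). On the log2 scale, mouse Atf4 was highest in phalanx PZ replicate 5 (11.28, against 11.08 to 11.10 in the others). Mouse Creb3l2 was lowest in phalanx PZ replicate 2 (12.71, against 12.96 to 13.00) and in 1-wk tibia PZ replicate 4 (12.47, against 12.81 to 12.88). Rat Atf4 was highest in replicate 5 of phalanx PZ (12.48, against 11.33 to 11.57) and of 4-wk tibia PZ (12.58, against 11.87 to 12.02). Rat Atf6 was highest in phalanx PZ replicate 2 (10.90, against 10.56 to 10.65). Rat 1-wk tibia PZ replicate 1 was highest for Ern1 (9.26, against 8.26 to 8.42) and Creb3l2 (14.31, against 13.74 to 13.87). Rat Eif2ak3 was lowest in 1-wk tibia HZ replicate 4 (9.99, against 10.22 to 10.31).

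The zone difference (HZ minus PZ) differed between the phalanx and the 1-wk tibia for 17 mouse members by the difference of differences in limma. It was more positive in the phalanx for Manf (1.42), Serpinh1 (1.36), Pdia4 (1.25), Pdia3 (1.09), Hspa5 (1.06), Sar1b (1.02), Ssr1 (0.99), Lman1 (0.96), Hsp90b1 (0.92), Pdia6 (0.79), Dnajb11 (0.71), Sec61a1 (0.67), Canx (0.65), Calr (0.58) and P4hb (0.53). It was more negative for Ddit3 (−1.80) and Ern1 (−1.24). In rat it was more positive for Serpinh1 (0.79) and Sec31a (0.60) and more negative for Dnajb11 (−1.33), Dnajc3 (−0.97), Creld2 (−0.81), Canx (−0.77) and Calr (−0.60). Between 4 wk and 1 wk in the mouse tibia it was more negative at 4 wk for Fkbp10 (−0.76) and Sec24d (−0.65).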

How the results depend on the processing

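Over all alternatives no called member changed direction. Of 238 calls of a member in a comparison, 172 were kept in every setting that left out no library, and 153 in every alternative. The counts of members called that moved by over 1.5 times, beside those with all 6 groups in 1 fit, were as follows. Fitting only the groups compared gave 28 (mouse tibia PZ with age, 12 in the main fit), 3 (mouse tibia HZ with age, 9) and 3 (mouse HZ between bones, 16), and array quality weights gave 28, 4 and 5 there, 16 in the rat 4-wk tibia zones (10) and 1 in the rat zone difference with age (0). Quantile normalization gave 0 for the mouse zone difference with age (2). The share of all genes called under these settings is not given, so a moved count is not a result about the members.

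The labels do not say which libraries share an animal, and the methods can be read as both zones coming from each animal. Deviations of libraries of 1 replicate number in different groups had r from −0.127 to 0.286, with no comparison having every pair over 0.1. Between zones, the library of the same number was the best match in 4 of 5, 3 of 5 and 3 of 4 mouse pairs (1-wk tibia, 4-wk tibia and phalanx). In rat it was so in 3 of 5 pairs of each growth plate. Without any link between numbers about 1 in 5 would be so (1 in 4 in the mouse phalanx), and each zone comparison lay above that. Between ages or bones it ranged from 0 of 5 (mouse tibia PZ with age) to 3 of 5 (such as rat tibia HZ with age). Whether libraries of 1 number share an animal was not tested. A further fit took the replicate number as a block and only the groups compared. Its counts were 24 in mouse tibia PZ with age, 2 in mouse tibia HZ with age and 2 in mouse HZ between bones. They were 10 in mouse phalanx zones (16), 9 in the mouse zone difference of the phalanx (17) and 4 in that with age (2). In rat they were 2 in PZ between bones (4) and 2 in the zone difference with age (0).

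Leaving out 1 library gave counts of 30 to 32, 31 to 33 and 12 to 17 for the zones of the mouse 1-wk tibia, 4-wk tibia and phalanx, 8 to 13 and 6 to 12 for mouse PZ and HZ with age, 7 to 11 and 8 to 18 for mouse PZ and HZ between bones, and 12 to 17 and 1 to 5 for the mouse zone differences of the phalanx and with age. In rat, in the same order, they were 11 to 16, 7 to 13 and 8 to 14, 15 to 23 and 3 to 7, 3 to 4 and 17 to 19, and 4 to 10 and 0 to 1.

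The difference between group medians of the members' mean moved under quantile normalization to −0.52 (mouse 1-wk tibia zones), 0.33 (mouse PZ with age), 0.24 (mouse HZ between bones) and −0.019 (rat 1-wk tibia zones). With the median over members in place of the mean it was −0.67, 0.26, 0.16 and 0.31 (mouse 4-wk tibia zones, phalanx zones, HZ with age and HZ between bones), and −0.10 and −0.55 (rat 4-wk tibia zones and HZ between bones). Leaving out 1 library gave ranges of −0.46 to −0.35, −0.88 to −0.77, 0.01 to 0.06, 0.35 to 0.49, −0.06 to 0.05, −0.34 to −0.21 and 0.15 to 0.20 in mouse (zones, ages, bones), and 0.06 to 0.15, −0.29 to −0.24, −0.17 to −0.05, 0.51 to 0.57, 0.16 to 0.21, −0.16 to −0.05 and −0.36 to −0.29 in rat.

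Quantile normalization moved the median of all genes by over 0.1 in mouse HZ with age (−0.13), rat HZ between bones (−0.13) and the rat zone comparisons (−0.15, −0.14 and −0.20), and TMM by at most 0.063 in size. Of the low members, rat Ddit3 had normalized counts of 0 to 33.5 and mouse Trappc2 of 0 to 42.3. The cause of these changes was not tested.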

Other observations

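Of the other genes of the unfolded protein response (8 in the mouse list), the following were named after their values were seen. Of the 8, 3 were higher and 0 lower in mouse 1-wk tibia HZ against PZ (20.4% and 23.7% of all genes), 0 higher and 3 lower in the 4-wk tibia (18.6% and 16.6%) and 0 higher and 1 lower in the phalanx (17.9% and 17.2%), and in the rat 1-wk tibia 2 were higher and 1 lower (22.6% and 19.0%). They include targets of Atf4 that are known to rise when eIF2alpha is phosphorylated. In mouse 1-wk tibia HZ against PZ, Trib3 was higher by 2.75 ± 0.79 (SE, limma adjusted p = 0.0047), Chac1 by 1.397 ± 0.56 (adjusted p = 0.0418) and Ppp1r15a, which reverses eIF2alpha phosphorylation, by 1.16 ± 0.34 (adjusted p = 0.00618). In mouse tibia HZ, 5 of the 8 were lower at 4 wk than at 1 wk (6.72% of all genes), among them Trib3 (−3.84, adjusted p = 0.000866), Chac1 (−2.46, adjusted p = 0.00259) and Asns, an amino acid synthesis enzyme (−2.24, adjusted p = 2.05e-05). In rat tibia the age differences of Chac1 and Asns were positive, at 3.40 (adjusted p = 2.79e-05) and 2.36 (adjusted p = 2.58e-07) in PZ and at 3.16 (adjusted p = 0.000133) and 1.54 (adjusted p = 0.000332) in HZ.

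Among the enzymes that modify collagen, P3h1, the prolyl 3-hydroxylase, was lower in HZ in all 6 growth plates, at −1.46, −1.84 and −1.23 in the mouse 1-wk tibia, 4-wk tibia and phalanx and −1.08, −0.85 and −0.83 in the rat, with adjusted p up to 7.5e-05. Plod2, a lysyl hydroxylase, was lower in HZ of the 3 mouse growth plates (−2.58, −2.07 and −2.19), and in the rat its differences were −0.17 and −0.26 in the tibia, which were not called, and −1.69 in the phalanx (adjusted p = 0.000819).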
